A study of Neogale vison with 6 samples.

Results

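The genes examined here are the inhibitors of cyclin-dependent kinases (CDKs) and the retinoblastoma proteins of Mv1Lu cells, an epithelial cell line from mink lung. They were taken by name from a table of RNA-seq read counts, as *CDKN1A*, *CDKN1B*, *CDKN1C*, *CDKN2A*, *CDKN2B*, *CDKN2C*, *CDKN2D*, *RB1*, *RBL1* and *RBL2*. Of these 10 names, 7 stood in the table as gene symbols. *CDKN2C* stood there as CDN2C, and was identified by the description of its row, so that 8 genes of the 24526 in the table were examined. *CDKN1C* and *CDKN2A* were not among the symbols or descriptions of the table and are not analysed here. The 3 control libraries came from untreated cells. The 3 libraries of cholesterol-depleted cells (CD) came from cells incubated for 16 h with 50 μM lovastatin, an inhibitor of HMG-CoA reductase, together with 50 μM mevalonate in medium with 10% lipoprotein-deficient serum (LPDS). All libraries were of 1 cell line, and the comparison covers the combined treatment, serum included. The labels number the replicates but do not say whether they were separate cultures, so the tests measure the spread between these libraries.

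CDK inhibitors are small proteins that hold back the cell division cycle. Those of the CIP/KIP family (p21, p27 and p57) bind complexes of cyclins with CDKs, above all those of CDK2, whereas those of the INK4 family (p16, p15, p18 and p19) bind CDK4 and CDK6 and keep them from their D-type cyclins. The kinases phosphorylate the retinoblastoma proteins RB1, RBL1 (p107) and RBL2 (p130), which otherwise bind E2F transcription factors and repress the genes for DNA replication. Mv1Lu cells are a classical model of growth arrest by TGF-β, in which p15 and p27 were studied.

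In CD cells, 4 of the 5 CDK inhibitors that could be tested rose (*CDKN2B*, *CDKN1B*, *CDKN2D* and *CDKN1A*) and 1 fell (*CDKN2C*), while both testable retinoblastoma genes, *RBL2* and *RB1*, rose. The largest increase was that of *CDKN2B*, to 2.56 times the control level. *CDKN2C* was 2.43-fold lower in CD. For each of these 7 genes, the 3 CD libraries lay on one side of the 3 control libraries. Calls were made with the edgeR quasi-likelihood test at an FDR below 0.05 on the 12148 genes with enough counts, of which 47.7% were called (24.8% higher and 22.9% lower in CD). Over the same genes, 58.0% had groups that did not overlap (29.5% with all CD libraries above and 28.6% with all below the control). The median log2 change of the 7 genes was 0.86, against 0.06 for all genes tested. In RNA from whole cultures, a smaller share of cells of a kind (such as cells in S phase) and less RNA in each cell cannot be told apart. The 7 genes had between 97 and 6078 counts in every library, so none passed the filter on low counts through 1 group alone. For 1 gene alone, the smallest two-sided p of an exact permutation test is 0.1 in this design, so the calls draw on the variance model that edgeR fits to all genes.

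The libraries held between 13473820 and 18633764 reads counted on genes. Reads that did not map made up 18.4%, 13.6% and 4.25% of control replicates 1, 2 and 3 and 3.54%, 4.33% and 9.37% of CD replicates 1, 2 and 3. The spread between replicates was wider in CD, with a median SD of log2 CPM (counts scaled to library size by TMM) of 0.25 over the tested genes against 0.13 in the control. CD replicate 3 stood apart from the other CD libraries. Squared differences between the counts of libraries were set against those from sampling alone (chi-square per degree of freedom). This value was 72.7 and 48.2 for CD replicate 3 against CD replicates 1 and 2. It was 15.1 between these 2 and 9.41 to 38.3 among the control libraries. With CD replicate 3 left out, 6 of the 7 tested CDK inhibitor and retinoblastoma genes were still called higher and 1 lower. With other libraries left out, the number called higher was 3 without control replicate 2, 4 without control replicate 3 and 5 without any one of the others. The label of an epithelial line was checked with marker genes. *KRT19* had 6164 to 18352 counts per library and was lower in CD (log2 fold change -1.03, FDR 2.74e-04, edgeR), whereas *EPCAM* and *CDH1* had at most 6 counts in any library, and *VIM*, a mesenchymal marker, had 54888 to 75339. *KRT8* and *KRT18* were not found. The 4 of 6 epithelial markers that were found summed to 890.3 to 1019 CPM in the control and 380.5 to 535.3 CPM in CD. Nearly all of this sum came from *KRT19*. Both of those tested, *KRT19* and *CLDN1*, were lower. The 6 mesenchymal markers summed to 4267 to 4538 CPM in the control and 3920 to 4970 CPM in CD, and 4 of the 6 were lower in CD. Of the leukocyte markers, *LYZ* had no counts and *PTPRC* 1 count in all, and *CD68* was higher in CD (log2 change 1.85), so that the 4 of 5 found summed to 5.13 to 5.62 CPM in the control and 16.9 to 22.4 CPM in CD. Of the endothelial markers, *CDH5* had 1 count in all and *VWF* 2 to 27 counts in the 5 libraries in which it was detected, with a higher level in CD, and the 4 together reached 0.0723 to 0.220 CPM in the control and 1.17 to 1.96 CPM in CD. The 6 alveolar and airway markers summed to 1.71 to 2.65 CPM in the control and 0.864 to 1.35 CPM in CD, with no counts of the surfactant genes *SFTPB* and *SFTPC* or of *AQP5*. What part these differences have in the changes of the CDK inhibitors was not tested.

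**Figure D1:**
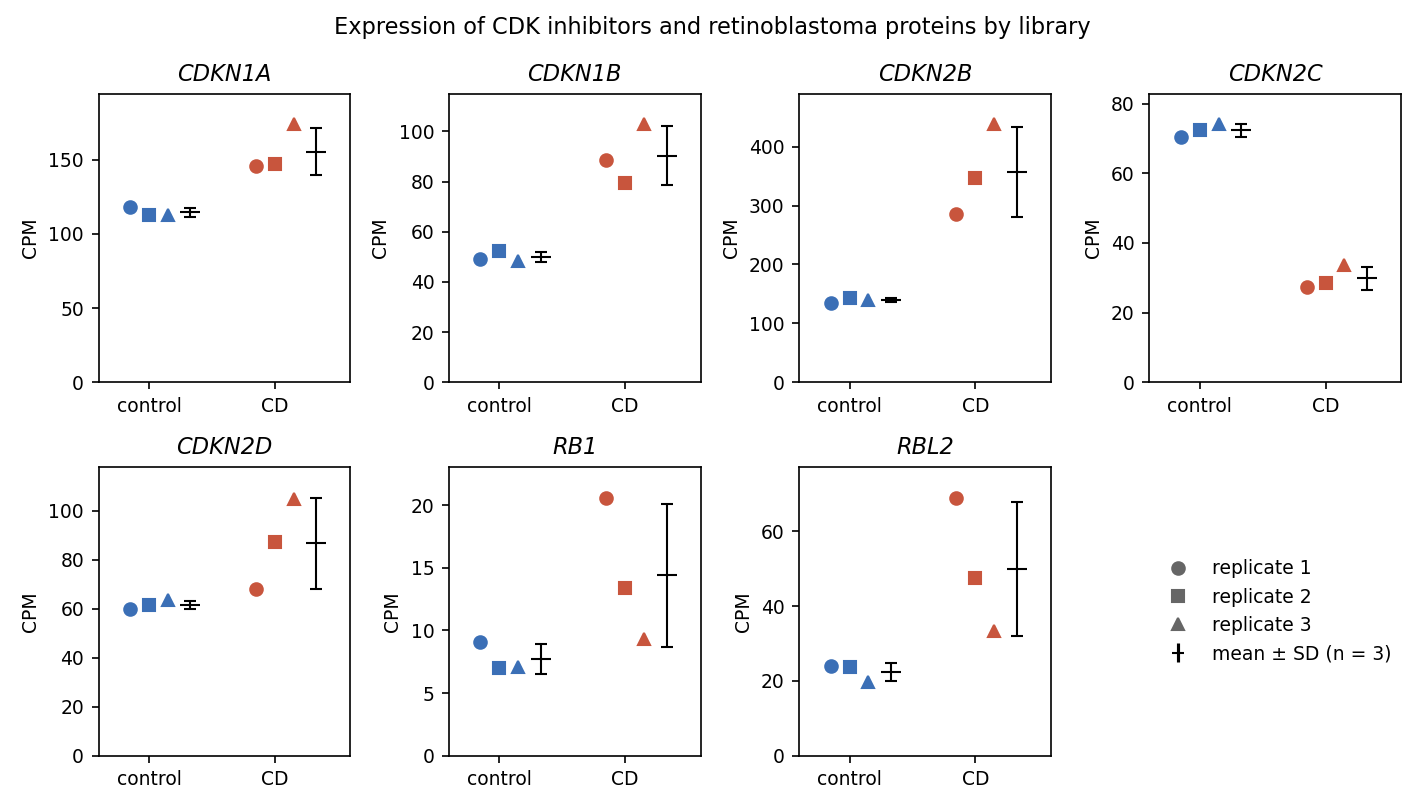
Expression of the 7 tested genes in CPM after TMM scaling (vertical axes from 0), with 1 symbol for each library, control in blue and CD in red, and the mean ± SD of 3 libraries beside them. The CD libraries lie above the control libraries in 6 panels and below them for *CDKN2C*. The CD points are far apart for *RB1* and *RBL2*, where replicate 1 is the highest and replicate 3 the lowest.

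Of the CIP/KIP family, *CDKN1B* and *CDKN1A* were tested. *CDKN1B* (ENSNVIG00000011132 in the count table) encodes p27, which accumulates in resting cells. It was at 49.2, 52.2 and 48.2 CPM in control replicates 1, 2 and 3, and at 88.6, 79.6 and 102.8 CPM in CD replicates 1, 2 and 3. The lowest CD library exceeded the highest control library by more than the whole range of the control. The mean rose 1.81-fold, from 49.9 ± 2.06 to 90.4 ± 11.7 CPM (SD of 3 libraries each). On the log2 scale this was 0.86 ± 0.13 (standard error), with a 95% confidence interval of 0.57 to 1.14 (FDR 4.07e-04, edgeR). This gene was called under all 14 alternatives of test, scaling, filter, block and omitted library, with a log2 change of 0.72 without CD replicate 3.

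*CDKN1A* (ENSNVIG00000013965) encodes p21, an inhibitor induced after DNA damage. Its level was 118.2, 112.8 and 112.9 CPM in the control and 145.7, 146.9 and 173.8 CPM in CD replicates 1, 2 and 3. The groups did not overlap, but the change was the smallest of the 7 genes. The mean rose from 114.6 ± 3.12 to 155.4 ± 15.9 CPM (SD of 3 libraries each), or 1.36-fold. Its log2 change was 0.44 ± 0.11 (standard error), with a 95% confidence interval of 0.19 to 0.69 (FDR 0.00951, edgeR). Without control replicate 2 the call was lost (FDR 0.0513, edgeR) at a log2 change of 0.43, and leaving out CD replicate 3 gave a log2 change of 0.32. Within libraries, the ratio of *CDKN1B* to *CDKN1A* counts was 0.416, 0.463 and 0.427 in the control and 0.608, 0.542 and 0.592 in CD, so that *CDKN1B* rose more than *CDKN1A* by 1.33-fold (two-sided p = 0.1 by exact permutation, the lowest value possible here).

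The INK4 family changed in both directions. *CDKN2B* (ENSNVIG00000012369) encodes p15, which is induced by TGF-β in epithelial cells. It was at 135.1, 142.6 and 139.9 CPM in the control and at 285.2, 347.3 and 437.8 CPM in CD replicates 1, 2 and 3. Every CD library was far above the control libraries, which lay close together, and CD replicate 3 was the highest. From 139.2 ± 3.83 CPM the mean rose to 356.8 ± 76.7 CPM (SD of 3 libraries each). The log2 change was 1.36 ± 0.15 (standard error; 95% confidence interval 1.01 to 1.70, FDR 7.27e-05, edgeR). By log2 fold change, *CDKN2B* was at rank 738 from the top of the 12148 genes tested. It was called under all 14 alternatives, with a log2 change of 1.15 when CD replicate 3 was left out and of at most 1.51 with any other library left out.

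*CDKN2D* (ENSNVIG00000024098), which encodes p19, showed 59.8, 61.4 and 63.4 CPM in the control and 67.9, 87.4 and 104.9 CPM in CD replicates 1, 2 and 3. CD replicate 1 lay only just above the control libraries. The mean rose 1.41-fold, from 61.5 ± 1.80 to 86.7 ± 18.5 CPM (SD of 3 libraries each), with a log2 change of 0.49 ± 0.16 (standard error; 95% confidence interval 0.15 to 0.84, FDR 0.0248, edgeR). This call was lost without control replicate 1, 2 or 3 (FDR 0.088, 0.0812 and 0.0717, edgeR) and without CD replicate 2 (FDR 0.089, edgeR), at log2 changes of 0.47, 0.50, 0.52 and 0.46. The log2 change was 0.30 when CD replicate 3 was left out and 0.65 when CD replicate 1 was.

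*CDKN2C* (ENSNVIG00000018452), which encodes p18 and is known as a target of E2F factors, was the only one of the 7 genes that fell. It was at 70.5, 72.5 and 74.0 CPM in the control and at 27.2, 28.6 and 33.6 CPM in CD replicates 1, 2 and 3. The groups were far apart, and the replicates of each group close together. The mean fell from 72.3 ± 1.78 to 29.8 ± 3.34 CPM (SD of 3 libraries each), a log2 change of -1.28 ± 0.13 (standard error; 95% confidence interval -1.56 to -1.0, FDR 2.93e-05, edgeR). It was at rank 790 from the bottom of the 12148 genes and was called under all 14 alternatives, with a log2 change of -1.41 without CD replicate 3. The ratio of *CDKN2B* to *CDKN2C* counts does not depend on the scaling of the libraries. It was 1.92, 1.97 and 1.89 in the control and 10.5, 12.2 and 13.0 in CD, a 6.15-fold difference (exact permutation test, two-sided p = 0.1). This p was fixed in advance, because the groups of both genes lay apart in opposite directions. The ratio of *CDKN2B* to *CDKN2D* differed less, from 2.26 ± 0.0563 to 4.12 ± 0.123 (SD, n = 3 each), or 1.82-fold with no overlap between the groups.

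Both retinoblastoma genes with counts rose, with a wide spread among the CD libraries. *RBL2* (ENSNVIG00000017591) encodes p130, the retinoblastoma protein of resting cells, which represses cell cycle genes as part of the DREAM complex. It was at 23.9, 23.8 and 19.7 CPM in the control and at 68.9, 47.4 and 33.4 CPM in CD replicates 1, 2 and 3. CD replicate 1 was 2.07 times as high as CD replicate 3, which still exceeded every control library. From 22.5 ± 2.42 CPM the mean rose 2.23-fold to 49.9 ± 17.9 CPM (SD of 3 libraries each). The log2 change was 1.15 ± 0.24 (standard error; 95% confidence interval 0.63 to 1.68, FDR 0.00274, edgeR). It was called under all 14 alternatives, and its log2 change was 0.86 when CD replicate 1 was left out and 1.34 when CD replicate 3 was.

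*RB1* (ENSNVIG00000011152), the retinoblastoma gene itself, had the lowest counts of the 7 genes, 127, 97 and 129 reads in the control and 335, 218 and 129 reads in CD replicates 1, 2 and 3. In CPM these were 9.10, 7.01 and 7.11 in the control and 20.6, 13.4 and 9.29 in CD. CD replicate 3 was barely above control replicate 1. The mean rose 1.87-fold, from 7.74 ± 1.18 to 14.4 ± 5.72 CPM (SD of 3 libraries each). The log2 change was 0.90 ± 0.28 (standard error; 95% confidence interval 0.28 to 1.52, FDR 0.0219, edgeR). Without CD replicate 1 this was 0.56 and the call was lost (FDR 0.0548, edgeR), and it was also lost without control replicate 2 or 3 (FDR 0.0725 and 0.0904, edgeR), at log2 changes of 0.83 and 0.84. *RBL1* (ENSNVIG00000013685), which encodes p107 and is known as an E2F target, had 0 counts in all 6 libraries, as 6644 genes of the table had. A count of 0 allows a level of up to 0.165 to 0.217 CPM per library (3 counts, counting error only). Reads that mapped to more than 1 place, 1098018 to 1405043 per library, stand in a row of their own without a gene, and their part in this 0 was not tested.

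Among the CD libraries, all 5 CDK inhibitors were highest in CD replicate 3, as were 40.1% of all genes tested. Replicate 1 was the lowest for 4 of these inhibitors (35.2% of all genes) and replicate 2 for *CDKN1B* (23.8%). Both *RB1* and *RBL2* were highest in CD replicate 1 (36.8% of all genes) and lowest in replicate 3 (41.0%). In the SD of log2 CPM among the CD libraries (computed with a prior count of 2), *RB1* and *RBL2* were at ranks 1143 and 1465 from the top of the 12148 genes, and *CDKN2B* and *CDKN2D* at ranks 4434 and 4312. *CDKN1B*, *CDKN2C* and *CDKN1A* were at ranks 7811, 8668 and 9181. CD replicate 3 also had the largest share of unmapped reads among the CD libraries (9.37%), whose part in this order was not tested. The ratio of *RBL2* to *RB1* counts within each library was 2.63, 3.39 and 2.77 in the control and 3.35, 3.54 and 3.59 in CD, and the groups overlapped (exact permutation test, two-sided p = 0.2).

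**Figure D2:**
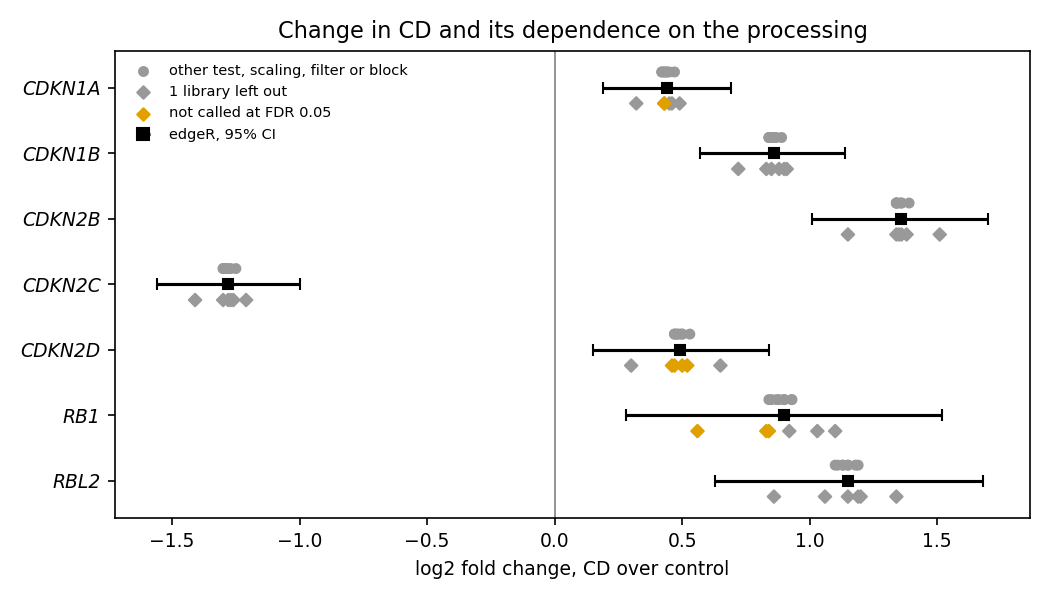
Log2 fold change of CD over control for the 7 tested genes, with black squares for edgeR (bars, 95% confidence interval), circles for other tests, scalings, filters and the replicate block, and diamonds for fits with 1 library left out. Yellow diamonds are fits in which the gene was not called, which occur for *CDKN2D* and *RB1* and, at a log2 fold change of 0.43, for *CDKN1A*.

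The kinases that the inhibitors bind fell together with those of their cyclins that could be measured. *CCND1* and *CCND2* were not found, so *CCND3* was the only D-type cyclin among them. In a list of 11 D-type, E-type and A-type cyclins, their kinases and the activating phosphatase *CDC25A*, 9 were found and tested, and all 9 were lower in CD (background 22.9%), with a median log2 fold change of -1.55. With total count scaling, and without control replicate 1, 2 or 3 or CD replicate 2, 8 of the 9 were called lower. *CCNE2*, a cyclin of CDK2, had 56, 58 and 73 counts in the control and 7, 4 and 2 in CD (log2 fold change -3.83, FDR 1.13e-05, edgeR). *CCNA2*, the S phase cyclin, had a log2 fold change of -2.23 (FDR 3.74e-06, edgeR). The smallest decreases were those of *CDK6* (-0.67, FDR 0.0374, edgeR) and *CCND3* (-0.88, FDR 1.73e-04, edgeR). *CDK4* fell from 286.7 ± 2.74 to 118.5 ± 14.0 CPM (log2 fold change -1.27) and *CDK2* from 47.9 ± 0.713 to 16.1 ± 0.584 CPM (log2 fold change -1.57, SD and n = 3 each). Both kinases are named as the partners of the inhibitors, with their values already known.

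Counts of inhibitor and kinase were therefore also compared within each library. The values depend on the length of both genes, so only their change between libraries is meaningful. The ratio of *CDKN2B* to *CDK4* was 0.466, 0.501 and 0.489 in the control and 2.75, 2.88 and 3.33 in CD, a 6.13-fold difference. For *CDKN2D* to *CDK4* the ratio was 0.206, 0.216 and 0.222 in the control and 0.655, 0.724 and 0.798 in CD, or 3.37-fold higher. The ratio of *CDKN2C* to *CDK4* was 0.243, 0.255 and 0.259 in the control and 0.263, 0.237 and 0.255 in CD, with overlapping groups and a fold of 0.997 (0.975 to 1.03 with each library left out). The CIP/KIP inhibitors both rose relative to *CDK2*. The ratio of *CDKN1B* to *CDK2* went from 1.04 ± 0.0308 to 5.59 ± 0.527 (SD, n = 3 each), or 5.36-fold, and that of *CDKN1A* to *CDK2* from 2.40 ± 0.0654 to 9.63 ± 0.629, or 4.02-fold. In all of these ratios but that of *CDKN2C* the groups did not overlap, and the exact permutation test gave its smallest two-sided p of 0.1. Both outcomes were fixed in advance and add no evidence to the separate changes. In every CD library *CDKN2B*, *CDKN2D*, *CDKN1B* and *CDKN1A* lay above, and *CDK4* and *CDK2* below, all control libraries.

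**Figure D3:**
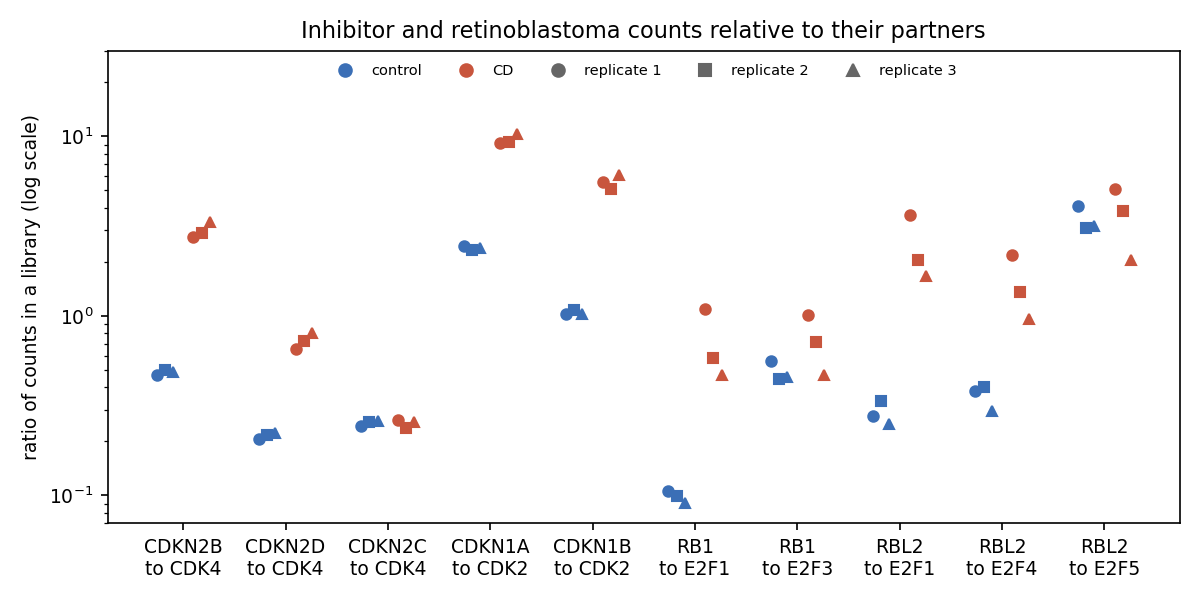
Ratio of the counts of 2 genes in each library (vertical axis, log scale), control in blue and CD in red, with 1 symbol for each replicate. The CD libraries lie above the control libraries in 7 of the 10 ratios, and the groups overlap for *CDKN2C* to *CDK4*, *RB1* to *E2F3* and *RBL2* to *E2F5*.

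The E2F family, of which E2F1 to E2F5 are bound by retinoblastoma proteins, held genes called in both directions. Of 10 genes for E2F factors and their DP partners, all tested, 5 were lower (background 22.9%) and 1 was higher (background 24.8%) in CD, and 4 were not called, with a median log2 fold change of -0.37. Without CD replicate 3, 2 were called higher. The largest decreases were those of *E2F8* (-3.78, FDR 1.13e-06, edgeR), an atypical E2F that retinoblastoma proteins do not bind, and *E2F1* (-1.93, FDR 3.89e-06, edgeR), the activator that RB1 binds. *TFDP1*, the main DP partner, had a log2 fold change of -0.81 (FDR 2.01e-04, edgeR). The gene called higher with all 6 libraries was *E2F5*, a partner of p130, from 6.61 ± 0.988 to 14.1 ± 1.95 CPM (SD of 3 libraries each; log2 change 1.09, FDR 0.00111, edgeR). *E2F4*, the other partner of p130, fell (log2 fold change -0.90, FDR 1.91e-04, edgeR), a gene chosen after its value was seen. Within libraries, the ratio of *RBL2* to *E2F1* counts was 0.277, 0.337 and 0.251 in the control and 3.66, 2.06 and 1.68 in CD, an 8.14-fold difference, and that of *RB1* to *E2F1* was 0.106, 0.0995 and 0.0906 in the control and 1.10, 0.581 and 0.467 in CD, or 6.79-fold (exact permutation test, two-sided p = 0.1 for each). The ratios depended on the E2F gene chosen. That of *RBL2* to *E2F4* was 0.380, 0.402 and 0.297 in the control and 2.17, 1.36 and 0.961 in CD, or 3.97-fold higher (two-sided p = 0.1 by exact permutation). For the ratios to *E2F1* and *E2F4* this p was fixed in advance, because the groups of both genes lay apart in opposite directions. Relative to *E2F5*, *RBL2* was at 4.07, 3.08 and 3.16 in the control and 5.07, 3.82 and 2.06 in CD, with overlapping groups and a fold of 1.003 (0.823 to 1.29 with each library left out). *E2F3*, another activator that RB1 binds, was not called (log2 fold change 0.31, FDR 0.0977, edgeR), and the ratio of *RB1* to it overlapped between the groups, at 0.560, 0.443 and 0.456 in the control and 1.02, 0.715 and 0.466 in CD (exact permutation test, two-sided p = 0.2).

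Of 8 genes for the MuvB core of the DREAM complex and the factors that replace p130 on it, 6 were tested, of which 3 were lower (background 22.9%) and 3 were not called, with a median log2 fold change of -0.75. DESeq2, limma-voom, total count scaling and the omission of CD replicate 1 or 3 each gave 4 lower genes. The lower genes were *MYBL2* (log2 fold change -2.97, FDR 1.30e-07, edgeR), matched by its description, *FOXM1* (-2.14, FDR 9.02e-07, edgeR) and the core subunit *LIN9* (-1.09, FDR 0.00611, edgeR). The core subunits *LIN37* and *LIN54* had log2 fold changes of -0.40 and -0.15 (FDR 0.0547 and 0.614, edgeR). *RBL2* rose while these partners were lower or not called.

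Among 18 E2F target genes of S phase, 15 were tested and all 15 were lower in CD, with a median log2 fold change of -2.61, against 22.9% of all genes tested. The largest decreases were those of *CDC6* (log2 fold change -4.49, FDR 2.10e-06, edgeR) and *CDT1* (-3.96, FDR 2.79e-07, edgeR), which load the MCM helicase onto DNA. The smallest were those of *PCNA* (-1.31, FDR 3.40e-05, edgeR), the sliding clamp of DNA polymerases, and *MCM6* (-1.39, FDR 5.62e-05, edgeR). With each library left out, all 15 were still called. The log2 fold change of *CDKN2C*, -1.28, was smaller in size than that of each of the 15.

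**Figure D4:**
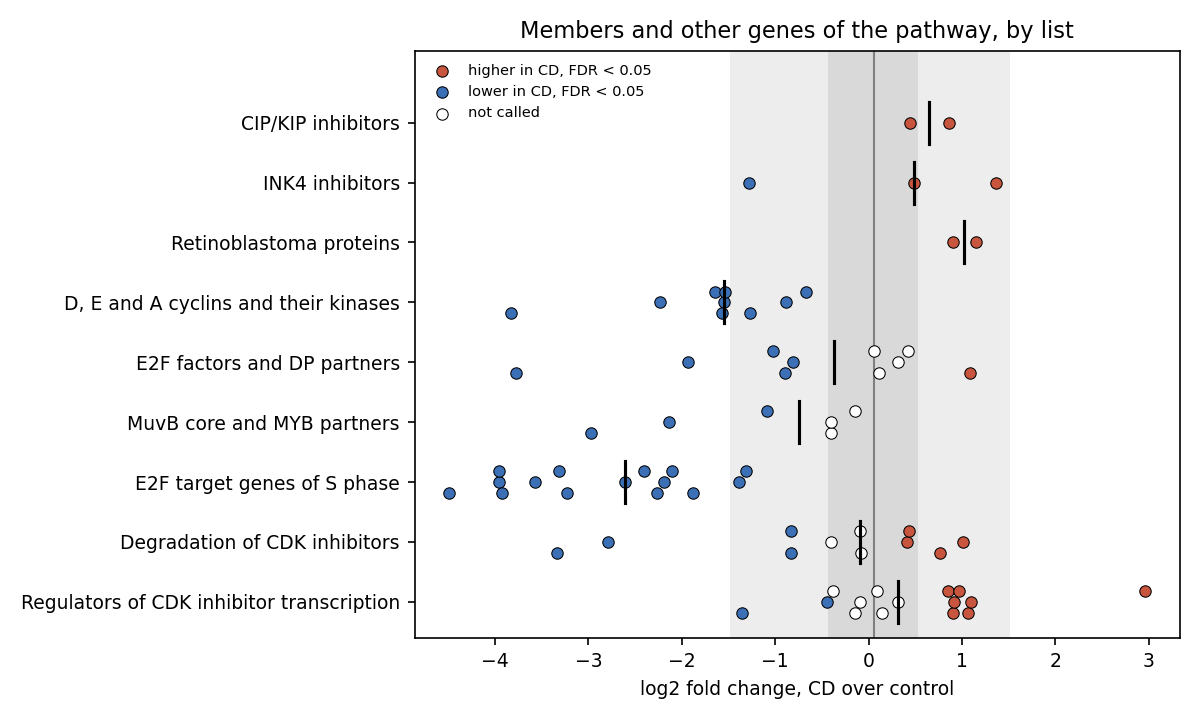
Log2 fold change of CD over control for each tested gene of 9 lists (red, called higher; blue, called lower; white, not called), with a black bar at the median of each list. The grey line is the median of all 12148 genes tested (0.06), and the bands span their 25th to 75th (-0.43 to 0.52) and 5th to 95th (-1.47 to 1.51) percentiles. The lists of cyclins with their kinases, of MuvB genes and their partners and of S phase targets lie wholly to the left of 0.

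The amount of p27 and p21 in a cell also depends on ubiquitin ligases that mark them for degradation. Of 11 genes for these ligases, all tested, 4 were higher (background 24.8%) and 4 lower (background 22.9%) in CD, with a median log2 fold change of -0.09. *DTL*, the receptor of the ligase that removes p21 and CDT1 in S phase, had a log2 fold change of -3.34 (FDR 1.38e-06, edgeR), and *CDC20*, an activator of the anaphase-promoting complex, one of -2.79 (FDR 3.04e-07, edgeR). *SKP2*, the receptor for phosphorylated p27, was at 24.9, 26.2 and 25.5 CPM in the control and at 14.5, 14.7 and 14.0 CPM in CD (log2 change -0.83 ± 0.14, standard error; FDR 7.72e-04, edgeR). Its cofactor *CKS1B* had a log2 change of -0.83 ± 0.15 (FDR 0.00154, edgeR). *SKP2* and *CKS1B* were chosen after their values were seen. *MDM2*, a ubiquitin ligase, rose by 1.01 on the log2 scale (FDR 7.56e-04, edgeR) and *SKP1*, a subunit shared by many ligases, by 0.76 (FDR 0.00454, edgeR). The number of higher genes was 2 without control replicate 3 or CD replicate 2.

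Of 16 genes for factors known to act on the transcription of CDK inhibitors, 15 were tested, of which 7 were higher (background 24.8%), 2 lower (background 22.9%) and 6 not called, with a median log2 fold change of 0.31. *KLF6*, a factor that can activate *CDKN1A*, rose from 63.4 ± 0.559 to 493.6 ± 22.1 CPM (SD of 3 libraries each; log2 change 2.96, FDR 1.19e-07, edgeR), and *SMAD2*, which carries TGF-β signals, rose by 1.10 on the log2 scale (FDR 1.26e-04, edgeR). *EZH2*, a Polycomb methyltransferase that represses the INK4 locus, fell by 1.36 on the log2 scale (FDR 1.90e-05, edgeR), and *ZBTB17*, a partner of MYC at *CDKN2B*, by 0.45 (FDR 0.0292, edgeR). The number of lower genes in this list was 1 without control replicate 1, 2 or 3. *MYC*, a repressor of *CDKN2B* and *CDKN1A*, was higher in CD, at 21.3 ± 0.387 against 41.8 ± 0.942 CPM (log2 fold change 0.97, FDR 1.43e-04, edgeR). *MYC* was chosen after its values were seen.

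The genes whose pattern over the 6 libraries was nearest to that of each member were sought by the Euclidean distance of centered log2 CPM, among 9670 genes with a symbol and at least 100 counts in total. For *CDKN2C* these were *DDX39A*, *CDK4* and *RNASEH2A*, at distances of 0.10, 0.13 and 0.13. For *CDKN2B* they were *ACAP1*, *METTL27* and *TNNI3* (0.08, 0.15 and 0.17). The nearest gene was *RILPL2* for *CDKN1A* (0.10), *WSDU1* for *CDKN1B* (0.10), *RIT1* for *CDKN2D* (0.07), *DENND4A* for *RB1* (0.17) and *RAB6A* for *RBL2* (0.12). These distances are a description of 6 libraries, most of whose differences lie between the groups.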

How the data were processed

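The authors isolated poly(A) mRNA, made Nextera XT libraries, trimmed the reads with fastp 0.20.1, aligned them to a mink assembly with STAR 2.7.2a and used DESeq2 1.30.1 in R 4.0.3. The counting program and its use of strand are not given in the sources used here, so overlapping and antisense genes are uncertain. The deposited counts are reads per gene without normalization. The 4 rows that name no gene, 29.3% to 47.2% of the reads of a library, were left out. Deposited files of normalized expression were not used.

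Counts were tested with edgeR 4.0.16 in R 4.3.3 (filterByExpr with a minimum count of 10 and total of 15, TMM, glmQLFit with robust estimation, glmQLFTest, condition as the only term), with Benjamini-Hochberg adjustment over all 12148 genes tested. The standard error is the log2 fold change divided by the square root of F. Its median was 0.18. The procedure was tested on simulated data with few changed genes and the same variability in both groups, unlike these data. That test therefore does not measure the error of the calls made here. No libraries were duplicates, since the chi-square per degree of freedom was between 9.41 and 218.0 for every pair.

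The genes and lists were chosen with earlier results of these data known, and the ratios and the matches by description after the counts were seen. Lists name, by rule, up to 2 called genes with the highest and 2 with the lowest log2 fold change. Other list genes given with values, among them *LIN37*, *LIN54* and *E2F3*, fall outside this rule and were named with their values known. Alternatives were DESeq2 1.42.0, limma-voom (limma 3.58.1), 3 scalings, 2 filters, a block for the replicate number, the omission of each library, an FDR of 0.01 and a test against a 2-fold change. Gene lengths were not used, so levels are not compared between genes. Values of some genes in the lists are not reported here.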

Additional observations from a re-analysis of the deposited data

How the results depend on the processing

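None of the 7 genes changed direction under its 14 alternatives, and the calls that were lost under them are those of *CDKN1A*, *CDKN2D* and *RB1* with a library left out. The folds of the *CDKN2C* to *CDK4* and *RBL2* to *E2F5* ratios, 0.997 and 1.003, lay on both sides of 1 (0.975 to 1.03 and 0.823 to 1.29) with each library left out. The numbers of called genes were 3016 higher and 2784 lower over all genes, and 6 and 1 among the 7 CDK inhibitor and retinoblastoma genes. With each library left out, these ranged from 2193 to 3582 and 2158 to 3575 over all genes, and from 3 to 6 and 1 to 1 among the 7, with the 3 found without control replicate 2. At an FDR of 0.01, 2006 genes were higher and 2036 lower, and 4 and 1 of the 7, *CDKN2D* and *RB1* no longer being called. Tested against a 2-fold change with glmTreat of edgeR, 591 genes were higher and 569 lower, and 0 and 0 of the 7, of which 2 had an unadjusted p under 0.05 (*CDKN2B*, FDR 0.0516, and *CDKN2C*, FDR 0.0614). DESeq2 called 2862 and 2814 genes, and 6 and 1 of the 7. Same-numbered libraries did not deviate together (correlations of -0.02, -0.33 and -0.18 across genes). This gave no sign of a pairing by replicate number but cannot exclude one, and the labels do not settle it. With the replicate number as a block, 2772 and 2636 genes were called, and 6 and 1 of the 7. Other scalings moved the median log2 fold change of all genes from 0.06 to between 0.04 and 0.09. Of 168 counts in the pathway lists under alternatives, 162 were within 1.5 times the reported count. Among these are the numbers of higher genes in the cyclin, MuvB and S phase lists, which were 0 in every fit. The standard errors of the log2 fold change were 0.28 for *RB1* and 0.24 for *RBL2*, against 0.11 to 0.16 for the other 5 genes.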
